A study of Mus musculus with 11 samples.

Results

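The genes examined here are 42 members of the Wnt pathway in MPC2 cells: 19 Wnt ligands, 15 receptors and co-receptors, and 8 intracellular effectors. Regions of accessible chromatin were assigned to a gene when they overlapped the stretch from 20 kb upstream of its annotated start to its annotated end, with gene positions from GENCODE vM21. Of the 94963 regions in the list, 263 lay at the 42 genes. The ligands held 86 of them, the receptors 91 and the effectors 86.

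MPC2 cells are mouse mesenchymal progenitors with conditional immortalisation, and the line represents 1 clone. ATAC-seq maps accessible DNA by letting Tn5 transposase cut open chromatin and leave sequencing adapters there. The 11 cultures comprised 3 of undifferentiated cells (MSC) given DMSO vehicle, 3 of MSC given FG-4592, 2 of osteocytes given vehicle and 3 of osteocytes given FG-4592. Osteocytes were cultures differentiated for 3 weeks, and FG-4592 (Roxadustat), an inhibitor of the prolyl hydroxylases that mark HIF for degradation, was applied at 50 uM for 48 hours. The design asked how this mimic of hypoxia acts on chromatin in each cell stage.

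The list held 1 value per region for all cultures together, read here as the average log2 CPM (the number of Tn5 cuts, normalised for library size, on the log2 scale) and called the level. No value of a single culture was analysed, so the effect of the drug and of differentiation on the Wnt genes could not be measured, no value has a replicate error, and no test was run. The depth of each culture is unknown. Shares carry a 95% Wilson interval that covers counting error only. Neighbouring regions of 1 gene are not independent of each other.

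Wnt proteins are secreted, lipid-modified ligands. They bind Frizzled receptors together with the co-receptors LRP5 or LRP6, which stops the destruction complex built on Axin and APC from marking β-catenin for degradation. β-catenin then enters the nucleus and binds the TCF/LEF transcription factors at their target genes. Other Wnt signals run through ROR1, ROR2 or RYK without β-catenin. In bone the pathway promotes osteoblast formation, and osteocytes restrain it with secreted inhibitors such as sclerostin.

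Several members had strongly accessible sequence away from their promoters. For 6 of them the central 200 bases of the gene's highest non-promoter region are printed, since the levels described below turn on these distal regions as much as on the promoters. Sequences are from the GRCm38 (mm10) reference, run 5′ to 3′ on the strand of the gene, and are in lower case. Capitals mark the core of a hypoxia response element (HRE, the letters ACGTG or GCGTG on either strand), to which HIF binds.
Wnt7b, chr15:85599782-85599981, minus strand, upstream: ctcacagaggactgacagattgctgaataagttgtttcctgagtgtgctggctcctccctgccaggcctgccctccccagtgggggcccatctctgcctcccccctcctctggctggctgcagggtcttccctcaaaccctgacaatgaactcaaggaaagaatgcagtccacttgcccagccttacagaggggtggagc
Wnt10b, chr15:98780479-98780678, minus strand, upstream: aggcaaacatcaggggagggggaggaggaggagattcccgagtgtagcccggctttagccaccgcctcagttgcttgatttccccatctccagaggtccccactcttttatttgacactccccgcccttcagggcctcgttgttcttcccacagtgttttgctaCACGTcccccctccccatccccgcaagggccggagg
Wnt11, chr7:98815733-98815932, plus strand, upstream: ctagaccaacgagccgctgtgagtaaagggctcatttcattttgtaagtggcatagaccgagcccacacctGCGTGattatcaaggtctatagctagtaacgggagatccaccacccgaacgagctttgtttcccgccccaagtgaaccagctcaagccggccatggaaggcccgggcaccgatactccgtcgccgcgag
Wnt16, chr6:22280369-22280568, plus strand, upstream: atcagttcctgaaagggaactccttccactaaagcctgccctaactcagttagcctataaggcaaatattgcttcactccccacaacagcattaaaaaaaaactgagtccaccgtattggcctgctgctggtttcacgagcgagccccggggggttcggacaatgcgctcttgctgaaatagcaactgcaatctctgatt
Lrp5, chr19:3638753-3638952, minus strand, intron 5: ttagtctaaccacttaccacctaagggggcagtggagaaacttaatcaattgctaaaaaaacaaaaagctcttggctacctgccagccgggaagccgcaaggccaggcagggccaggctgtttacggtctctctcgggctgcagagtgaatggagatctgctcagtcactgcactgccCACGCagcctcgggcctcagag
Tcf7l2, chr19:55876402-55876601, plus strand, intron 4: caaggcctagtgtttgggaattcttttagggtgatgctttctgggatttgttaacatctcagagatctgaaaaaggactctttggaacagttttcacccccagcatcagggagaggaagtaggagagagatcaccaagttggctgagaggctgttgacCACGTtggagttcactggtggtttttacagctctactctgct

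These windows lay outside annotated exons. The printed stretches at Wnt10b, Wnt11, Lrp5 and Tcf7l2 held an HRE core, and those at Wnt7b and Wnt16 held none. Over its whole length, the Wnt11 region held 6 HRE cores, the Wnt10b and Wnt16 regions 2 each, and the others 1 each. Of all regions of the list, 24.2% held a core in their central 200 bp and 46.2% over their whole length. These 6 regions were also wide, from 840 bp at Lrp5 to 1927 bp at Wnt7b, beside a median of 460 bp for the list. A match describes letters only, and binding of a factor was not measured.

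Nearly every Wnt gene had accessible chromatin in its window. At least 1 region was found at 41 of the 42 members, beside 79.5% of all 21938 protein-coding genes. The exception was Fzd10, a Frizzled receptor, whose nearest region lay 189853 bp from its start. A promoter region, meaning a region within 1000 bp of any annotated transcript start of the gene, was found at 35 members (83.3%), beside 64.1% of all protein-coding genes.

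The classes differed in how often the promoter was accessible. All 8 effectors and 14 of 15 receptors had a promoter region, but only 13 of 19 ligands did (68.4%), a share close to that of all protein-coding genes. Wnt3, Wnt3a, Wnt8a, Wnt8b, Wnt10a and Wnt16 were the ligands without one. All of these 6 nevertheless had between 2 and 11 regions elsewhere in their windows. The classes also differed in base composition. Principal starts that were CpG-rich, as defined below, numbered 14 of 19 at ligands, 15 of 15 at receptors and 6 of 8 at effectors. Of these CpG-rich starts, 11 at ligands, 14 at receptors and 6 at effectors had a region within 1000 bp.

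The regions also lay in different places. Ligand regions were spread over promoters (22), upstream sequence (26), introns (28) and exons (10). Among receptors, 53 of 91 regions were intronic, and among effectors 61 of 86. The density was 1.13 regions per 10 kb of window at ligands, 0.978 at effectors, 0.720 at receptors and 0.563 over all protein-coding genes. Shared regions counted once for each gene here, which makes 104 for the 86 ligand regions. Without upstream sequence the effectors were densest, with 1.10 per 10 kb against 1.04 at ligands and 0.789 at receptors. Of the 263 regions, 18 were counted for 2 ligands at once, because Wnt1 and Wnt10b share 7, Wnt3a and Wnt9a 6, Wnt6 and Wnt10a 3, and Wnt3 and Wnt9b 2.

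**Figure D1:**
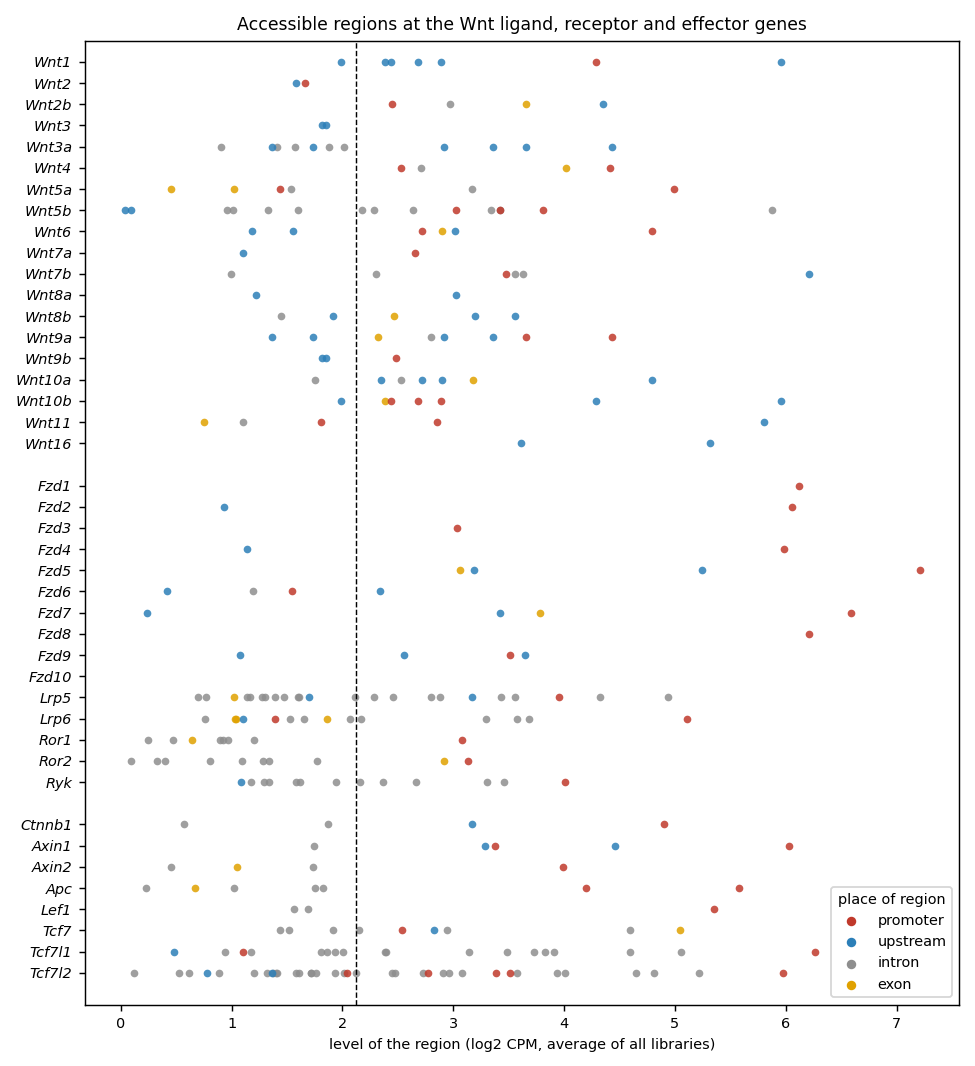
Level of every region (x axis, log2 CPM averaged over all libraries) at each of the 42 genes (y axis, ligands, receptors and effectors from top to bottom), coloured by place, with the median of all 94963 regions (2.12) as a dashed line. The highest points of Fzd5, Fzd7 and Fzd8 are promoter regions at 7.21, 6.59 and 6.21, while those of Wnt7b, Wnt10b, Wnt11 and Wnt16 are upstream regions between 5.31 and 6.21.

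Among ligands, Wnt5b, which signals mainly without β-catenin, had the most regions. Of its 15 regions, 10 were intronic, 3 lay at annotated starts and 2 upstream, with levels from 0.04 to 5.87 log2 CPM. Its highest region, at chr6:119478602-119480867, lay in intron 1 but only 66 bp from the start of Fbxl14, a gene for an F-box protein, so it cannot be credited to Wnt5b alone. Promoter regions of Wnt5b itself reached 3.81.

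Wnt3a, a classical β-catenin-activating ligand, had 11 regions and no promoter region. Its nearest region lay 2917 bp from the start, and its 5 intronic regions ranged up to 2.02. Its highest level, 4.43, belonged to an upstream region that is also the promoter region of the neighbouring Wnt9a. Wnt9a, which takes part in joint formation, had 8 regions, of which 6 were the ones shared with Wnt3a.

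The highest ligand levels were found upstream. The region 21811 bp upstream of the principal start of Wnt7b, at chr15:85598918-85600844, had a level of 6.21, higher than 98.4% of all regions. The promoter region of Wnt7b had 3.47. Wnt7b, a ligand that promotes bone formation, was thus most accessible at a distance, and the closest annotated start of any gene was its own outer start, 17408 bp away.

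At Wnt10b, a ligand known to raise bone mass, the highest region had a level of 5.95 and lay 2428 bp upstream, at chr15:98780077-98781079. The same region lies 9279 bp upstream of Wnt1, a ligand whose loss in people causes fragile bone. For its width this region was high: its level stood 2.07 above the median of regions of similar width. The 3 promoter regions of Wnt10b were narrow, from 236 to 318 bp, and had levels of 2.44, 2.68 and 2.89, each at least 1.21 above the median for their width.

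Wnt11, which directs cell movement without β-catenin, showed the same order. Its upstream region, 19299 bp from the principal start, had a level of 5.80, and its 2 promoter regions had 1.80 and 2.85. By contrast, Wnt5a, Wnt6, Wnt9a and Wnt4 had a promoter region as their highest, with levels of 4.99, 4.79, 4.43 and 4.41. The weakest highest promoter region of any ligand was that of Wnt2, at 1.66.

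Wnt5a, the main non-canonical ligand of mesenchymal tissue, had the highest promoter level among ligands. The region at its principal start, chr14:28504383-28506044, was 1662 bp wide and had a level of 4.99. A second region near another annotated start had 1.44, and a region in intron 1 had 3.17. The 3 regions further along were weak: 0.45 over exon 4, 1.54 in intron 4 and 1.02 over exon 5.

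Wnt16, a ligand of osteoblasts that protects cortical bone, had regions only upstream. The nearer one, at chr6:22279867-22281069, lay 7762 bp before the start with a level of 5.31. The farther one, at chr6:22269994-22270995, lay 17736 bp before the start with a level of 3.61. No region touched the gene itself, and 37.9% of the 2273 protein-coding genes of similar length had fewer regions.

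Among the receptors, several Frizzled genes had very high promoter levels, and Lrp5, Lrp6 and Ryk had long rows of intronic regions. The promoter region of Fzd5 had a level of 7.21, higher than 99.9% of all regions. That of Fzd7 reached 6.59 and that of Fzd8 6.21. Fzd1, Fzd2 and Fzd4 followed between 5.98 and 6.12. Frizzled receptors bind Wnt through a cysteine-rich domain, and most of their genes are short with a single coding exon. The Fzd4 region also covered the start of the divergent gene Tmem135, 20 bp from its midpoint.

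Other Frizzled genes were weaker at the start. Fzd9, a receptor required in osteoblasts for normal bone formation, had 3.51 at the promoter and 3.65 at an upstream region. Fzd3 had 1 region in all, a promoter region at 3.04, although 83.9% of protein-coding genes of similar length had more. The promoter of Fzd6 was the weakest among receptors at 1.55. The range of promoter levels within the Frizzled family, from 1.55 to 7.21, was thus the full range of the receptor class.

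The receptors with the most regions were Lrp5 with 23, Lrp6 with 14 and Ryk with 13. LRP6 is the close relative of LRP5 in the co-receptor pair, and RYK is an atypical receptor with an inactive kinase domain. The Lrp6 promoter had a level of 5.11 and its other regions stayed at or below 3.68. The Ryk promoter had 4.01 and its 11 intronic regions stayed at or below 3.46. Ror1 and Ror2, kinase-like receptors for Wnt5a, had promoter levels of 3.08 and 3.13, and no intronic region of either exceeded 1.77.

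Lrp5, the co-receptor whose inherited variants alter bone mass, was the receptor with the most accessible interior. Of its 23 regions, 19 were intronic, 2 lay upstream, 1 over exon 15 and 1 at the promoter. Only 0.34% of 1187 protein-coding genes of similar length had more. The highest was in intron 5, 47704 bp into the gene at chr19:3638433-3639272, with a level of 4.93, and its central sequence is printed above. The promoter region, chr19:3685700-3686781, had 3.95.

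The other Lrp5 regions formed several groups. A region in intron 1, 4948 bp into the gene, had 4.33, and the other 5 regions of that intron had 2.28, 1.30, 1.14, 1.39 and 1.61. The 3 regions of intron 2 had 1.47, 1.60 and 2.88. Intron 5 held 4 more regions besides the strongest, at 3.43, 2.80, 2.46 and 0.77. Intron 7 held 1 region at 3.56.

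The 3′ part of Lrp5 was weaker. Intron 14 had 0.69, exon 15 had 1.02, intron 19 had 1.28 and the 2 regions of intron 21 had 1.16 and 2.11. Upstream, the regions at 6065 and 13247 bp before the start had 1.70 and 3.17. The latter lay nearer to the start of another coding gene, 1810055G02Rik, than to that of Lrp5.

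All 8 effectors had an accessible promoter, and in 7 of them the promoter region was the highest. Tcf7l1, the TCF family member that acts mostly as a repressor, had the highest at 6.27. Axin1, the constitutive scaffold of the destruction complex, had 6.03, and Tcf7l2 had 5.97. Apc, a tumour suppressor and destruction complex subunit, had 5.58 at its principal start and 4.20 near a second start. Ctnnb1, which encodes β-catenin, had 4.90.

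The TCF genes also had the most regions. Tcf7l2 held 36, the most of the 42 members, and only 0.32% of 618 protein-coding genes of similar length had more. Of these, 29 were intronic, 5 lay at annotated starts and 2 upstream. The strongest intronic one, in intron 4 at chr19:55875833-55877169, had a level of 5.21. Tcf7l1 held 18, with 13.8% of similar genes having more.

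Tcf7, which encodes TCF1, was the exception among effectors. It had 9 regions, and its promoter region had only 2.53. Its highest level, 5.05, belonged to a region over exon 10 at the 3′ end of the gene, 15807 bp from the nearest coding start, that of Skp1a. A region in intron 2 had 4.59. At Axin1, the upstream region at 4.46 lay 65 bp from the start of Mrpl28 and cannot be credited to Axin1 alone.

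Lef1, an activating member of the family and itself a Wnt target, had only 3 regions in a gene of 113886 bp, and 72.3% of similar genes had more. Its promoter region, chr3:131110137-131112664, was the widest of all member regions at 2528 bp and had a level of 5.35. The other regions were weak, 1.56 in intron 3 and 1.69 in intron 8. The Lef1 promoter region stood -0.18 from the median of regions of its width, whereas the highest promoter region of Tcf7l2 stood 1.61 above.

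Axin2, the inducible scaffold and a classical feedback target of β-catenin, had 4 regions. The region at its outer annotated start, chr11:108920159-108920964, had a level of 3.99 and lay 2620 bp before the principal start. The principal start itself had no region within 1000 bp. The others had 1.73 and 0.45 in intron 1 and 1.05 over exon 4.

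**Figure D2:**
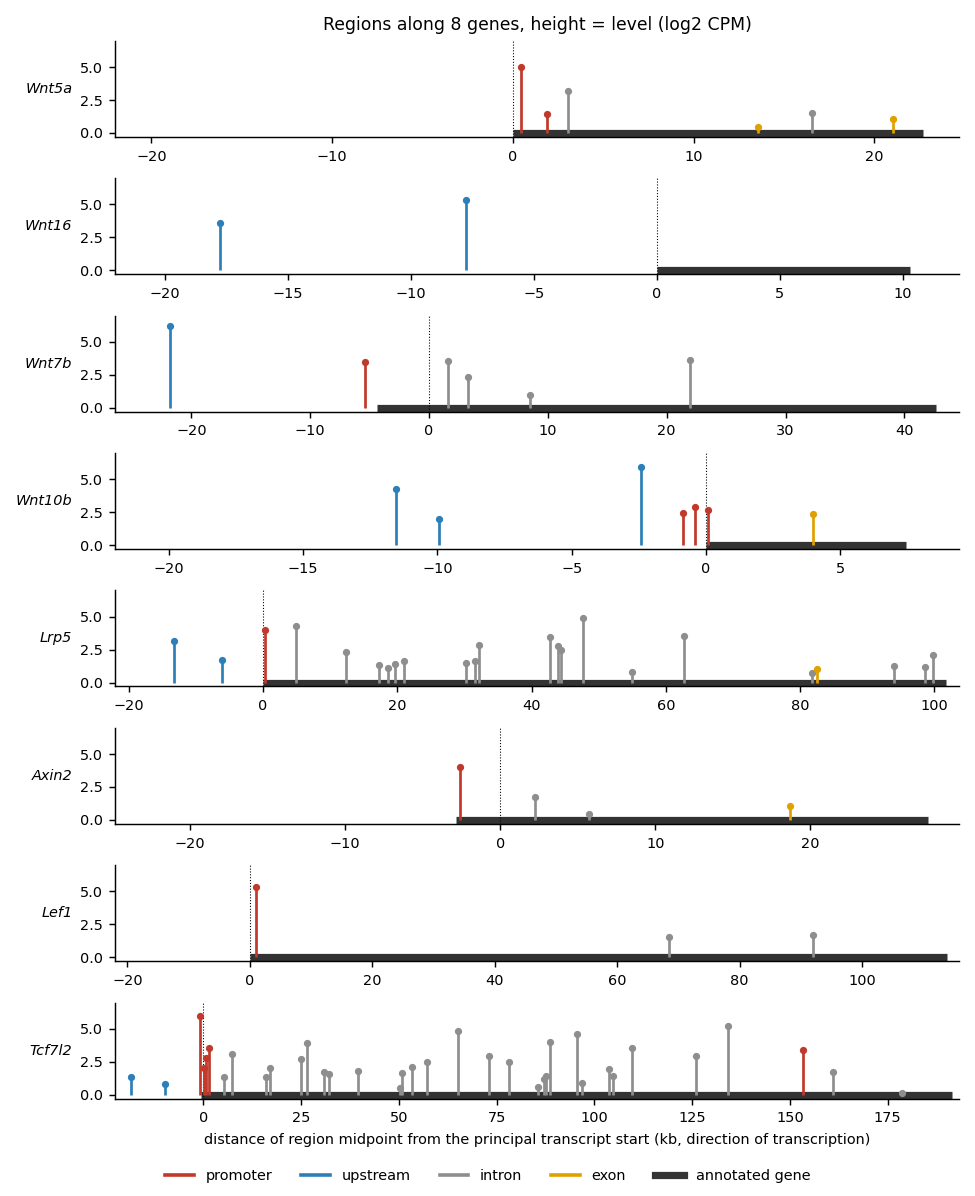
Regions along 8 genes, placed by the distance of their midpoint from the principal transcript start (x axis, kb in the direction of transcription, scaled to each gene) with the level as height (y axis, log2 CPM averaged over all libraries), coloured by place, and the annotated gene as a dark bar. Wnt16 has regions only upstream (5.31 and 3.61), Lrp5 and Tcf7l2 have 23 and 36 regions along their length, and Lef1 has 3.

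The order of the classes by level depended on which regions were compared and on their width. Over all regions, the median level was 2.50 at ligands, 2.08 at effectors and 1.70 at receptors, beside 2.12 for the whole list. When each gene was instead represented by its highest region, the order turned, with 5.47 at effectors, 5.02 at receptors and 4.43 at ligands, beside 5.03 over all protein-coding genes. The ligands also came last among regions at least 500 bp wide, with a median of 3.43 against 3.48 at receptors and 3.77 at effectors. Intronic regions, the largest group in each class, had median levels of 2.10 at ligands, 1.53 at receptors and 1.87 at effectors. Some of them lay at starts of other genes. The median was 1.89 for all regions of the list away from the start of any gene, whether intronic or not, so the sets are not alike.

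When each gene was represented by its highest promoter region, the effectors had the highest levels and the ligands the lowest, without regard to width. The median of the genes' highest promoter regions was 5.47 at effectors, 4.56 at receptors and 3.47 at ligands. Over all protein-coding genes with a promoter region it was 5.04, with quartiles of 3.84 and 5.75. Away from their own starts, the median of the genes' highest regions was 4.02 at ligands, 3.81 at effectors and 3.46 at receptors, beside 3.39 over all protein-coding genes. Some of these regions lay at the starts of neighbouring genes, as at Wnt3a, Wnt10a, Wnt5b and Axin1. Without regions at the start of any protein-coding gene, the medians were 3.36 at ligands, 3.46 at receptors and 3.23 at effectors, so no class stood clearly above the others. The promoter region was the highest region in 25 of the 41 genes, a share close to the 59.3% of all protein-coding genes with a region. By class this was so in 7 of 19 ligands, 11 of 14 receptors and 7 of 8 effectors.

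**Figure D3:**
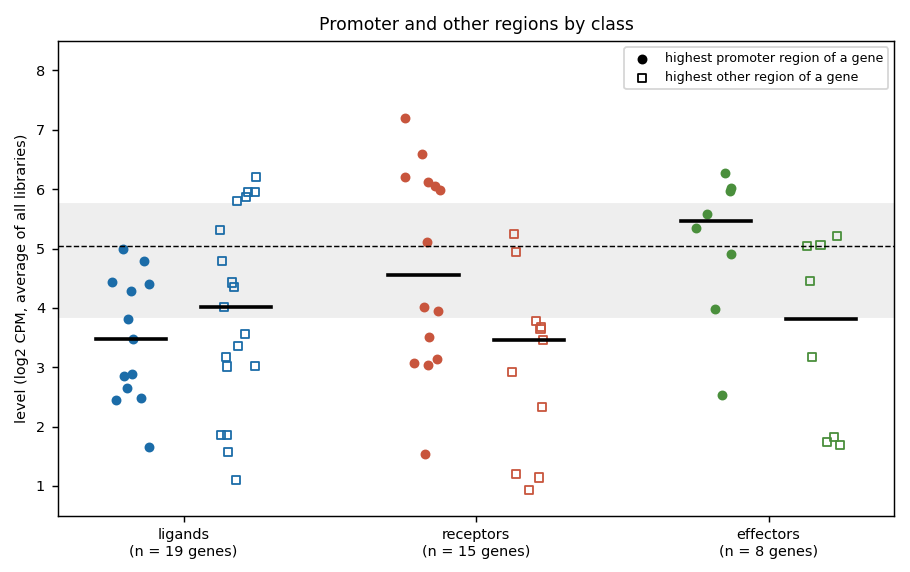
Level of the highest promoter region (filled circles) and of the highest other region (open squares) of each gene (y axis, log2 CPM averaged over all libraries) by class, with class medians as black bars and the quartile range (3.84 to 5.75) and median (5.04) of promoter levels over all protein-coding genes as a grey band and dashed line. The ligand promoters lie between 1.66 and 4.99, all below the dashed line, and 6 of the 14 receptors reach 5.98 or more.

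Widths differed as well, and a wider region collects more cuts. Regions were made by merging peaks of several libraries, so their width depends on which libraries contributed. The median width of promoter regions was 658 bp at ligands, 824 bp at effectors and 1337 bp at receptors. Taking all promoter regions and not only the highest of each gene, the median level was 4.01 at receptors, 3.99 at effectors and 2.87 at ligands. Relative to regions of similar width, the medians of the same promoter regions were 0.58 above at effectors, 0.43 above at ligands and 0.24 above at receptors. Receptors thus moved from first to last. Per kb of width, the median levels of the classes came closer, at 3.48, 3.47 and 3.22 log2 CPM per kb for ligands, effectors and receptors, beside 3.25 for the whole list. Over all regions, the medians relative to regions of similar width were 0.16 above for ligands, 0.10 above for effectors and -0.06 for receptors.

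The number of regions also follows gene length, so counts were set beside genes whose length differed by at most 20%. Lrp5 and Tcf7l2 stood at the upper end, as given above, together with the short ligand genes Wnt1 and Wnt10b, which share their 7 regions. Only 0.22% of 1391 genes of similar length had more than Wnt1, and 0.84% of 2153 had more than Wnt10b. At the lower end were Fzd3, Lef1 and Fzd10, with 83.9%, 72.3% and 69.9% of similar genes having more. The remaining genes of a length similar to Fzd10 also had 0 regions. The median count was 5.0 at ligands, 4.0 at receptors and 6.0 at effectors, beside 3.0 over all protein-coding genes.

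**Figure D4:**
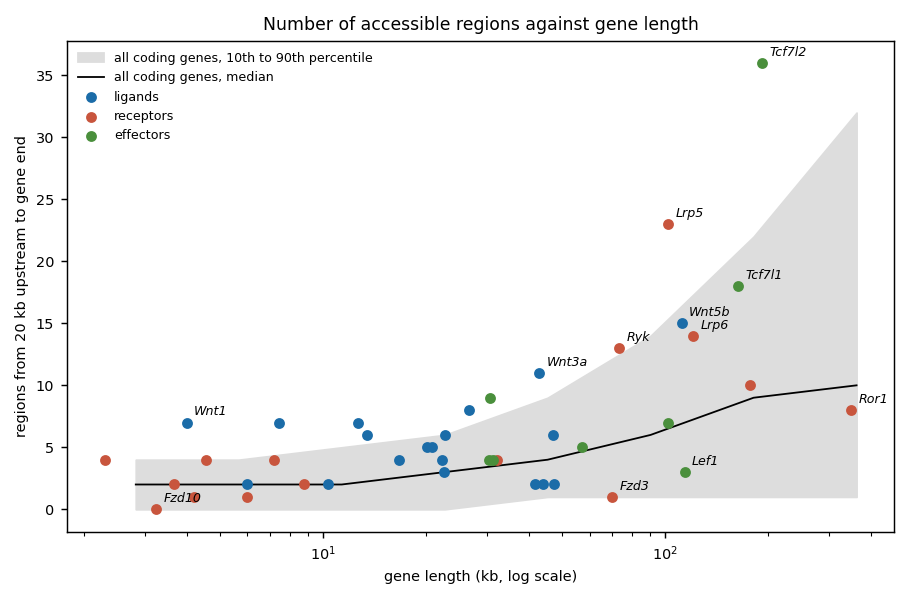
Number of regions from 20 kb upstream to the gene end (y axis) against gene length (x axis, kb, log scale) for the 42 genes, coloured by class, with the median and the 10th to 90th percentile of all protein-coding genes of that length as line and band. Tcf7l2 (36 regions) and Lrp5 (23) lie above the band, Lef1 (3) lies below the median line, and Fzd10 has 0.

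CpG-rich starts are usually accessible in many cell types, so the starts were split by base composition. A start was called CpG-rich when GC content was at least 55% and the observed over expected CpG ratio at least 0.6 within 500 bp on either side. By this rule 35 of the 42 principal starts were CpG-rich, and 31 of these (88.6%) had a region within 1000 bp, beside 90.3% of all CpG-rich starts. The 4 without were Wnt3, Wnt3a, Wnt7b and Fzd10. With a ratio of at least 0.75 the direction turned, to 95.5% of member starts against 92.2% of all. Under that ratio Fzd10 was the only CpG-rich member start without a region. At Wnt3, a ligand with 2 weak upstream regions of 1.82 and 1.86, the nearest region lay 9935 bp away. At Wnt7b it lay 1013 bp away, just outside the limit.

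Of the 7 starts that were not CpG-rich, 2 had a region, those of Wnt1 and Tcf7l2, beside 38.8% of all such starts. The other 5 were Wnt8a, Wnt8b, Wnt10a, Wnt16 and Axin2. The shares of accessible starts among the members were thus near those of all genes with the same base composition. Over all protein-coding genes, 8614 of 21938 principal starts were CpG-rich.

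Motif letters were counted in a window of 300 bp on the midpoint of each region, which runs past the edges of the 65 member regions narrower than that. For each of HRE, AP-1 and RUNX, 1 member region had a match in the window and none inside its edges. The TCF/LEF site, CTTTGAT, was found in 10 of the 263 member regions (3.80%, interval 2.08% to 6.86%), beside 3.77% of all regions. The AP-1 site, TGACTCA or TGAGTCA, which AP-1 factors such as FOS and JUN bind, was found in 32 (12.2%, interval 8.75% to 16.7%), beside 15.5%. The RUNX letters TGTGGT, bound by the osteoblast regulator RUNX2 and its relatives, were found in 63 (24.0%, interval 19.2% to 29.5%), beside 29.5%. All were searched on both strands. The share of all regions lay inside the members' interval for TCF/LEF and AP-1. Over whole regions, however, AP-1 letters were found in 15.97% of member regions (interval 12.0% to 20.9%) against 22.1% of all. For RUNX it lay just above the interval, and weighted to the CpG number and promoter status of the member regions it was 26.9%, inside it.

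The HRE core was found in 105 member regions (39.9%, interval 34.2% to 46.0%), beside 33.0% of all regions. Ligand regions held it most often (50.0%), followed by receptor (37.4%) and effector regions (32.6%). However, the core contains a CpG, and member regions held many. When all regions were weighted to the same number of CpG and the same promoter status as the member regions, their share was 39.8%, and the difference of 6.90 percentage points fell to 0.10. For ligand regions the weighted share was 44.9%, within the interval of 39.7% to 60.3%.

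**Figure D5:**
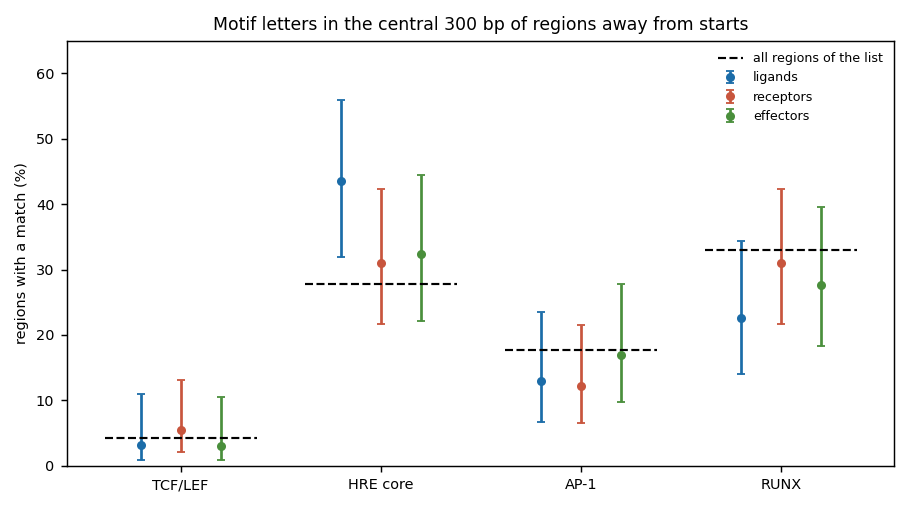
Share of regions away from any annotated transcript start with a motif match in the central 300 bp (y axis, %) for ligands (62 regions), receptors (74) and effectors (65), with 95% Wilson intervals for counting error, and the share of all such regions as dashed lines. The HRE core in ligand regions (43.5%) lies above the dashed line at 27.8%, which is not weighted for CpG number (39.7% when weighted), and the other intervals include their line.

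The TCF/LEF matches of the central windows are printed because these are the letters that the pathway's own transcription factors recognise. There were 11 in 10 regions, each shown with 10 bases on either side, in the direction of the gene, with the match in capitals and its distance from the principal start. CTTTGAT and its reverse complement ATCAAAG both count.
Axin2, chr11:108920417-108920443, plus strand, -2751 bp: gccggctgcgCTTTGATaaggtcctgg
Wnt11, chr7:98835051-98835077, plus strand, -67 bp: acgtgggcggATCAAAGcgacggtccg
Wnt10a, chr1:74797610-74797636, plus strand, 6107 bp: tctgtcccagATCAAAGgcagggcggc
Wnt5b, chr6:119438394-119438420, minus strand, 105911 bp: ctgtctggccCTTTGATgacctctttc
Fzd2, chr11:102595585-102595611, plus strand, -8798 bp: tagctagtaaATCAAAGttgcctttcc
Fzd2, chr11:102595622-102595648, plus strand, -8761 bp: gcagccccggCTTTGATttctctctcc
Ror1, chr4:100429534-100429560, plus strand, 333756 bp: gccctccaggATCAAAGagacaaatgt
Ror2, chr13:53205303-53205329, minus strand, 80233 bp: tgctttcaagATCAAAGacagactgga
Ror2, chr13:53217741-53217767, minus strand, 67795 bp: ccttcagacaCTTTGATctatggcaac
Ctnnb1, chr9:120948054-120948080, plus strand, 14667 bp: ttttctgaaaCTTTGATttggttcctg
Tcf7l2, chr19:55792722-55792748, plus strand, 50403 bp: cactcaaagcCTTTGATcttttgcttt

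Of the 10 regions, those at Axin2 and Wnt11 were promoter regions, 7 were intronic and the one at Fzd2 was upstream. The Axin2 region had a level of 3.99, and the other 9 were at or below 1.87. Over their whole length, 17 member regions held a match (6.46%, interval 4.07% to 10.1%), beside 6.98% of all regions. The 7 added in this way were mostly wide and strong. They were the upstream region shared by Wnt10b and Wnt1 (5.95), the promoter regions of Lrp6 (5.11), Ctnnb1 (4.90) and Tcf7 (2.53), intronic regions of Tcf7l2 (4.81) and Tcf7 (4.59), and the upstream region of Wnt2b (4.35). The promoter regions of Fzd5, Fzd7, Tcf7l1 and Fzd8 and the upstream region of Wnt7b held no match over their whole length.

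Of the other genes of the pathway, 4 lists were read, and secreted antagonists were not among them. A promoter region was found at both secretion factors (Porcn and Wls, which acylate and carry Wnt proteins), all 9 agonists and regulators of receptor turnover, all 8 cytoplasmic components and all 8 nuclear cofactors read, beside 64.1% of all protein-coding genes. Among agonists and turnover genes, promoter levels ranged from 1.19 at Rspo4, an R-spondin, to 6.08 at Lgr4, an R-spondin receptor. Cytoplasmic components ranged from 4.49 at Csnk1e, a casein kinase, to 8.40 at Gsk3b, the kinase that marks β-catenin, which was the highest level of the whole list. Nuclear cofactors ranged from 3.17 at Tle2 to 6.84 at Tle4, both Groucho-type co-repressors.

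Marker genes were read for the cells in the pool. A promoter region was found at 6 of 10 osteoblast and osteocyte markers and at 5 of 6 mesenchymal progenitor markers, beside 64.1% of all protein-coding genes. The osteoblast and osteocyte share was thus no higher than that of all genes. However, that background mixes CpG-rich principal starts (90.3% with a region within 1000 bp) with the others (38.8%). Neither the markers nor the pathway genes above were split in this way, so their shares were not compared at like base composition. Sost, which encodes sclerostin, Mepe, Phex and Pdpn were the osteoblast and osteocyte markers without a promoter region. Thy1 was the progenitor marker without one. Among 8 markers of other cell types, the fat cell marker Adipoq (2.96) and the endothelial marker Pecam1 (1.89) had one. The other endothelial marker, Cdh5, and those of blood, epithelial, cartilage and muscle cells had none. MSC and osteocyte cultures contributed to the same list and cannot be told apart in it.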

How the data were processed

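ATAC-seq libraries came from 11 cultures. The authors trimmed reads with Trim Galore, aligned them to mm10 with Bowtie2, removed duplicates with Picard 2.17.8, called peaks with MACS2 2.2.7.1, merged peaks of several samples, removed blacklisted regions, counted cuts with pyDNase, dropped regions with few cuts and normalised by TMM in edgeR 3.24.3. The sources used here state no Tn5 shift of read ends, and the library they left out on grounds of quality is not analysed here. The deposited value of each region was read as log2 CPM averaged over all samples, since it fell below 0 in 460 of 94963 regions and 2 to its power summed to 1012761. This unit was inferred. The average covers groups of unequal size.

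Positions are 1-based GRCm38 (mm10), and 0 regions ran past a chromosome end. Promoter regions lay within 1000 bp of an annotated start of the gene; the others were exon, intron or upstream in that order. For motifs, and for the median of all regions of the list outside promoters, promoter status referred to starts of any gene. Python 3.11.15, numpy 2.4.6 and pandas 2.3.3 were used, and overlap and motif searches were tested on simulated data.

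The members and lists were chosen with earlier results of these data known. Named with values were, in each class, the 3 genes with the most regions and the 3 with the highest single region, genes with 0 regions, CpG-rich genes without a promoter region, and every region of Axin2, Lef1, Lrp5, Wnt5a and Wnt16. Other members were named after their values were seen. Alternatives were upstream distances of 0, 10 and 50 kb, promoter limits of 500 and 2000 bp, regions at least 500 bp wide, joined regions, other motif windows, a CpG ratio of 0.75 and the highest region of each gene. Weighting by CpG number, class differences among regions at least 500 bp wide, and leaving out regions at starts of other genes were added after seeing the data.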

Additional observations from a re-analysis of the deposited data

How the results depend on the processing

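Of 99 alternative values, 81 stayed within 1.5 times the reported value (counts and densities) or within its 95% interval (medians and shares), 14 moved further and 4 changed sign. Keeping only regions at least 500 bp wide left 115 regions, 41 at ligands, 34 at receptors and 40 at effectors, with median levels of 3.43, 3.48 and 3.77 log2 CPM. Without upstream sequence (0 kb), ligands kept 56 regions. The difference in median level between receptors and ligands, -0.80 over all regions, reversed to 0.60 with the highest region of each gene, and effectors minus ligands from -0.42 to 1.04. Among regions at least 500 bp wide, a comparison added after seeing the data, they also reversed, to 0.059 and 0.349. Per kb of width these differences shrank to -0.26 and -0.01, although both count among the 81 that stayed. The intervals used for this count hold no variation between cultures. Without upstream sequence, the density order of ligands and effectors turned (1.04 against 1.10 per 10 kb). With a CpG ratio of at least 0.75, 92.2% of CpG-rich starts of all protein-coding genes and 95.5% of those of members had a region, in place of 90.3% and 88.6%. HRE cores were found in 55.9% of whole member regions (interval 49.9% to 61.8%, beside 46.2% of all) and in 27.8% of their central 200 bp (22.7% to 33.5%, beside 24.2%), so the share of all regions lay outside the interval for whole regions and inside it for 200 bp. RUNX letters were found in 38.4% (32.7% to 44.4%, beside 42.7%) and 19.01% (14.7% to 24.2%, beside 22.2%), both inside. Leaving out regions at any annotated start, also added, gave medians of the highest remaining regions of 3.36 at ligands, 3.23 at effectors and 2.92 at receptors. Weighting for CpG number, likewise added, lowered the HRE difference from 6.90 to 0.10 percentage points.

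The depth of each library is unknown, and with it the level below which regions went uncalled. No paired analysis was possible because each region has 1 pooled value and no result comes from a test. For the same reason no replicate was left out.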
